A study of Homo sapiens with 9 samples.

Results

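The genes described here are 40 genes of monocyte and macrophage maturation, a fixed list of names chosen with earlier results of these data known. The list covers surface receptors, integrins, Fc receptors, subunits of the phagocyte oxidase, calgranulins, pattern recognition receptors, chemotactic receptors and intracellular myeloid proteins. All 40 had a row among the 30017 genes of the count table, and 31 of them had enough reads to be tested, among 12712 genes tested in all. They were measured in MOLM13, a human line grown from acute myeloid leukemia cells that have monocytic traits. The cells carried a lentivirus that expresses green fluorescent protein (GFP) with a short hairpin RNA, and GFP-positive cells were sorted on day 4. The 3 groups were sh-Control, the control hairpin, and shDDX41 #1 and shDDX41 #2, 2 hairpins against DDX41, an RNA helicase. Each group had 3 RNA-seq libraries, lettered A, B and D, and all 9 came from this single cell line, so the control cells share its leukemic genotype, the vector and the sort.

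Monocytes arise in the bone marrow from myeloid progenitors under the transcription factors PU.1 and C/EBP. As they mature they gain the lipopolysaccharide co-receptor CD14, integrins of the CD18 family for adhesion, Fc receptors that bind antibody-coated particles, and the NADPH oxidase that makes superoxide for killing of microbes. Macrophages later add scavenger receptors such as CD163 and the mannose receptor MRC1. Myeloid leukemia lines usually hold only part of this program.

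The libraries held 16385238 to 20510032 counts, and the 40 genes took 0.162% to 0.183% of them. DDX41 lay at 113 to 117 CPM (counts per 1000000 counts of the scaled library) in sh-Control, 9.95 to 12.9 CPM in shDDX41 #1 and 38.9 to 42.5 CPM in shDDX41 #2, without overlap between groups. In such bulk RNA, fewer cells of a type and less RNA per cell cannot be told apart. Library D of shDDX41 #1 stood apart from its group. Its chi-square per degree of freedom was 17.6 and 19.2 against the other libraries, with 2.91 between those. The sh-Control libraries were uneven too, at 7.998 for A and B, 10.14 for A and D and 8.353 for B and D. The pairs of shDDX41 #2 lay at 2.447 to 3.251. The myeloid markers summed to 1814 to 1872 CPM in sh-Control, 1848 to 1866 CPM in shDDX41 #1 and 2746 to 2769 CPM in shDDX41 #2, with only CD34 of the 9 at 0. All 5 erythroid markers were at 0, and the T cell, B cell, megakaryocyte, dendritic and mast cell lists each summed to at most 2.18 CPM. The 3 NK cell markers summed to 19.5 to 22.4 CPM, 11.8 to 16.99 CPM and 22.4 to 25.7 CPM in the same order of groups, with KLRD1 at 0. The 8 neutrophil markers summed to 16.1 to 20.1, 13.9 to 17.2 and 19.4 to 23.0 CPM, with CEACAM8, MMP8 and LTF at 0. A single gene carried most of each of these sums. NKG7 had means of 20.3, 13.7 and 23.4 CPM among the NK cell markers. CXCR2 had means of 17.8, 15.4 and 20.8 CPM among the neutrophil markers. The part of these lists in the results below was not tested.

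The name of the gene list was met only in part by these cells. CD33, CD68, ITGB2 and CYBA were at 104 CPM or more in every library. Other monocyte genes were present too, with sh-Control means of 30.4 CPM for FCGR1A, 72.2 for CCR2 and 47.1 for MNDA. Several markers of mature monocytes and macrophages, CD14 and CD163 among them, had few counts or none. CD163, the hemoglobin scavenger receptor, and the secreted proteins S100A12 and FCN1 had no count in any of the 9 libraries, which allows a level of up to 0.149 to 0.182 CPM per library, the level of 3 counts. CD14 had 1, 1 and 2 counts in sh-Control A, B and D, 2, 0 and 3 counts in shDDX41 #1, and 2, 0 and 1 counts in shDDX41 #2. MRC1 had 4 counts over all libraries, FPR1, a receptor for formyl peptides, had 21, and C5AR1, the receptor for complement C5a, had 33. CLEC7A, the beta-glucan receptor Dectin-1, had 56 counts and MSR1, the class A scavenger receptor, had 57. FPR1 had 0, 2 and 1 counts in sh-Control, 0, 0 and 4 in shDDX41 #1 and 3, 6 and 5 in shDDX41 #2, and CLEC7A had 8, 4 and 8, then 5, 4 and 4, then 8, 8 and 7 in the same order. The shDDX41 #2 libraries thus lay above the controls in FPR1 and above shDDX41 #1 in CLEC7A, by a few counts. The 9 genes had too few counts for the test, so no difference was tested in them. Intervals and floors cover counting error only.

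Short stretches of the promoters are shown because the members share a motif there that was not used to list them. RefSeq promoter windows on GRCh38.p14, from 250 bases before to 50 bases after a transcript start, were found for 33 of the 40 genes. Windows were not found for CLEC7A, ITGAX, ITGB2, MPEG1, MRC1, MSR1 and NCF4. The letters GAGGAA, the core bound by PU.1, were searched on both strands and stood in 24 of the 33 genes (72.7%), against 31.8% of 27305 genes with a window and 33.7% of 9005 tested genes with a window. Some genes have several windows, and counted by window the share was 67.4% of 46 against 27.9% of 35116. The C/EBP-type letters TTGCNNAA stood in 7 of the 33 genes (21.2%), against 12.7% of all genes with a window and 10.1% of the tested ones. The letters of the 2 motifs cannot overlap, and a match is a description of the letters only. In 8 genes the first base of a GAGGAA match lay between -50 and -35, counted from -1 at the base before the start, a band chosen after the positions were seen. The same band held a match in 2.16% of all genes with a window and 2.55% of the tested ones. The 8 matches with 12 bases on each side are all written as the plus strand of GRCh38.p14, and capitals mark GAGGAA or TTCCTC, its reverse complement.
CYBB (chrX:37779999-37780028): tgctgttttcatTTCCTCattggaagaaga
CD68 (chr17:7579578-7579607): tgagactttcatTTCCTCctttccaagaga
FCGR1A (chr1:149782636-149782665): aaggcaatttccTTCCTCttttctaatttg
FCGR2A (chr1:161505400-161505429): gaaaccatttccTTCCTCttttctaagctt
NCF1 (chr7:74773954-74773983): gacaaaagcgacTTCCTCtttccagtgcat
CD86 (chr3:122055307-122055336): ctgtagagaaaaGAGGAAcagcttctctta
TLR4 (chr9:117704351-117704380): gtggggcggctcGAGGAAgagaagacacca
AIF1 (chr6:31615185-31615214): tgggaggcagagGAGGAAggaatgagggga

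The match was on the strand opposite to the gene in CYBB, CD68, FCGR1A, FCGR2A and NCF1, and on the gene's own strand in CD86, TLR4 and AIF1. SPI1, the gene of PU.1 itself, lay at 251 ± 15.9 CPM in sh-Control, 250.4 ± 11.2 in shDDX41 #1 and 239.9 ± 3.50 in shDDX41 #2 (SD, n = 3 each). Its log2 fold changes were -0.00 (SE 0.0641, adjusted p = 0.973) and -0.06 (SE 0.0640, adjusted p = 0.493) by edgeR's quasi-likelihood test. Of the 8 genes with the shared position, FCGR1A, NCF1 and CD86 fell and CD68 and AIF1 rose with shDDX41 #1, while CYBB, FCGR2A and TLR4 did not pass the test there. With shDDX41 #2, CYBB and CD86 rose and the other 6 did not pass the test. Of all tested genes, 47.8% were called with shDDX41 #1 and 25% with shDDX41 #2. The part of the motif in these changes was not tested.

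The first question is which of these genes differed from sh-Control with each hairpin, and the next is where the hairpins differed from each other. A gene was called where its adjusted p by edgeR's quasi-likelihood test, over all 12712 tested genes, was under 0.05. With shDDX41 #1, 7 of the 31 tested genes rose (22.6%) and 8 fell (25.8%), against 23.7% and 24.1% of all tested genes, and their median log2 fold change was 0.01 against 0.01. With shDDX41 #2, 9 rose (29%) and 6 fell (19.4%), against 11.6% and 13.4% of all tested genes, with a median of 0.02 against -0.01. Between the hairpins, 8 genes were higher (25.8%) and 11 lower (35.5%) in shDDX41 #1, against 24.6% and 24.2% of all tested genes, with a median of -0.08 against 0.01. The shares for shDDX41 #1 were thus near the background of that comparison. The share that rose with shDDX41 #2 was above its background, in a list chosen with earlier results of these data known. This excess is therefore a description only. The share that fell rested on single libraries: 3 genes fell without library A of sh-Control (9.68% against 12.7% of all tested genes). It was also 3 without library A of shDDX41 #2 (9.68% against 9.4%) and without library D of shDDX41 #2 (9.38% against 8.95%). Changes of at least 2-fold were called in 1 of the 31 genes with shDDX41 #1, 3 with shDDX41 #2 and 5 between the hairpins. Among all 12712 tested genes these numbers were 854, 313 and 833. Both comparisons with sh-Control used the same control libraries, so their values are given side by side, and the hairpins were compared directly. Without library D of shDDX41 #1, its counts against sh-Control were again 7 higher and 8 lower, of 32 genes then tested. Those of shDDX41 #2 were 12 (37.5%) and 7 (21.9%), where the shares of all tested genes also rose, to 16.2% and 16.7%. Those between the hairpins were 8 (25%) and 14 (43.8%), against 24.3% and 24.8%.

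**Figure D1:**
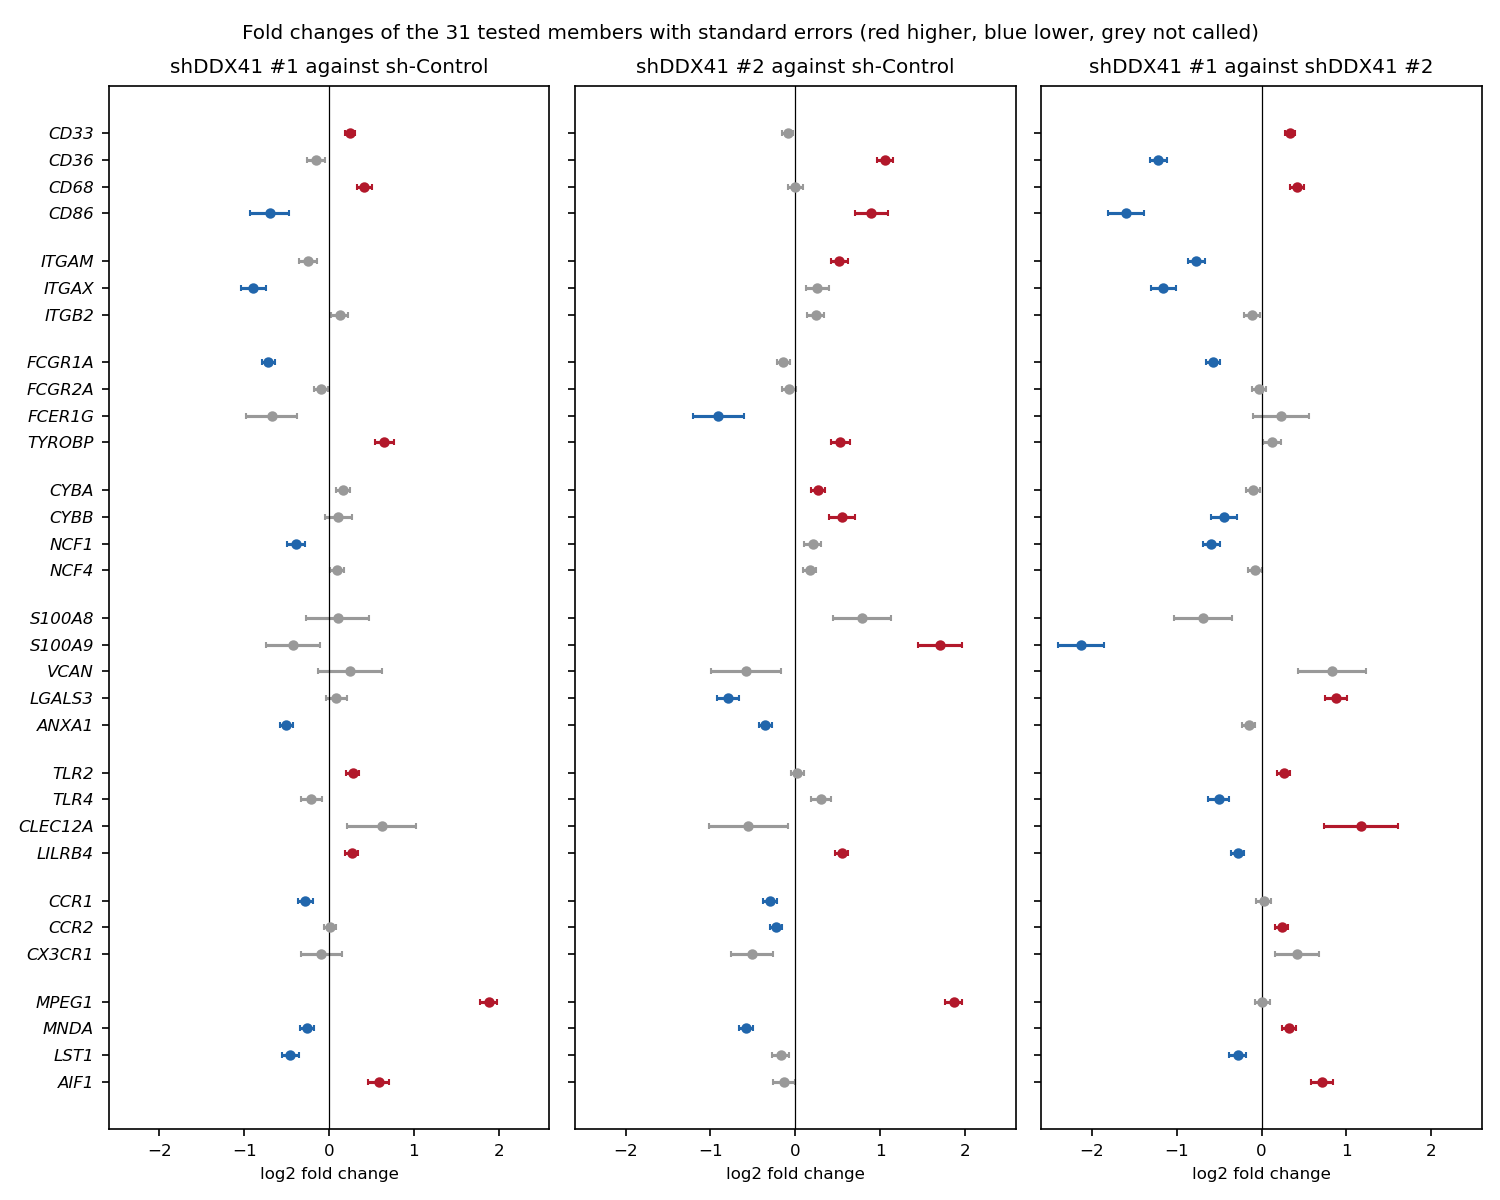
Log2 fold changes (x axis) of the 31 tested genes (y axis, spaced by role) in the 3 comparisons, with bars for the standard error and colors for genes called higher, lower or not. MPEG1 stood near 1.9 with both hairpins, while CD36, CD86 and S100A9 rose with shDDX41 #2 alone among the hairpins and were lower in shDDX41 #1 than in shDDX41 #2.

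MPEG1 had the largest rise with either hairpin among the 31 genes. It encodes perforin-2, a pore-forming protein of macrophages, from a single exon at chr11:59208510-59212951 on the minus strand (GENCODE 29, GRCh38). It lay at 7.88, 8.83 and 9.27 CPM in sh-Control A, B and D, at 34.1, 31.7 and 29.97 CPM in shDDX41 #1, and at 28.7, 32.9 and 33.5 CPM in shDDX41 #2. Every library of both hairpins was above every control library, and the hairpins overlapped each other. The change on the log2 scale was 1.88 (SE 0.101, adjusted p = 4.37e-09) with shDDX41 #1 and 1.87 (SE 0.101, adjusted p = 1.10e-08) with shDDX41 #2, and the difference between the hairpins was 0.01 (SE 0.0901, adjusted p = 0.928). Its exons share 78 bases with DTX4 on the other strand, or 1.76% of their length, and DTX4 rose too, by 1.02 (adjusted p = 8.65e-05) and 1.20 (adjusted p = 5.86e-05) on the log2 scale. The part of the shared bases in the rise of MPEG1 was not tested.

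Among the surface markers and scavenger receptors, CD33 and CD68 were higher and CD36 and CD86 lower in shDDX41 #1 than in shDDX41 #2. These are the 4 tested genes of the group, in a comparison where 48.8% of all tested genes were called. CD36, a receptor for fatty acids and oxidized lipoproteins at chr7:80369575-80679277, lay at 11.6, 13.6 and 12.2 CPM in sh-Control, 11.9, 10.1 and 11.5 CPM in shDDX41 #1 and 26.7, 25.6 and 25.5 CPM in shDDX41 #2. The shDDX41 #2 libraries were well above all others, and the shDDX41 #1 libraries overlapped the controls. The log2 change was 1.06 (SE 0.0986, adjusted p = 3.31e-06) with shDDX41 #2 and -0.16 (SE 0.105, adjusted p = 0.230) with shDDX41 #1, a difference of -1.22 (SE 0.101, adjusted p = 2.15e-07).

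CD86, a costimulatory ligand for T cells at chr3:122055366-122121139, moved in opposite directions. It lay at 5.61, 4.87 and 4.74 CPM in sh-Control, 3.13, 1.92 and 4.31 CPM in shDDX41 #1 and 9.19, 10.9 and 8.18 CPM in shDDX41 #2. No groups overlapped, although library D of shDDX41 #1 lay close to the lowest control. The change on the log2 scale was -0.70 (SE 0.225, adjusted p = 0.0181) with shDDX41 #1 and 0.90 (SE 0.196, adjusted p = 0.00403) with shDDX41 #2, a difference of -1.60 (SE 0.212, adjusted p = 2.09e-05). The fall with shDDX41 #1 was not called without library A of sh-Control or without library B of shDDX41 #1, where the adjusted p reached 0.0843 and the log2 fold change ranged from -0.99 to -0.44 over the alternatives tried.

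CD33, a sialic acid-binding receptor of myeloid cells, was at 115, 115 and 105 CPM in sh-Control, 138, 128 and 131 CPM in shDDX41 #1 and 106, 105 and 104 CPM in shDDX41 #2. It rose by 0.25 (SE 0.0625, adjusted p = 0.00462) with shDDX41 #1 and had a log2 fold change of -0.09 (adjusted p = 0.324) with shDDX41 #2. CD68, a lysosomal membrane protein of macrophages, rose by 0.42 (SE 0.0855, adjusted p = 9.88e-04) on the log2 scale with shDDX41 #1, from 136.5 ± 15.3 to 182 ± 17.6 CPM, and was at 136.6 ± 4.59 CPM in shDDX41 #2 (SD, n = 3 each). Its exons lie for 81.7% of their length within AC016876.2, a transcript on the same strand that has no row of its own in the count table.

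**Figure D2:**
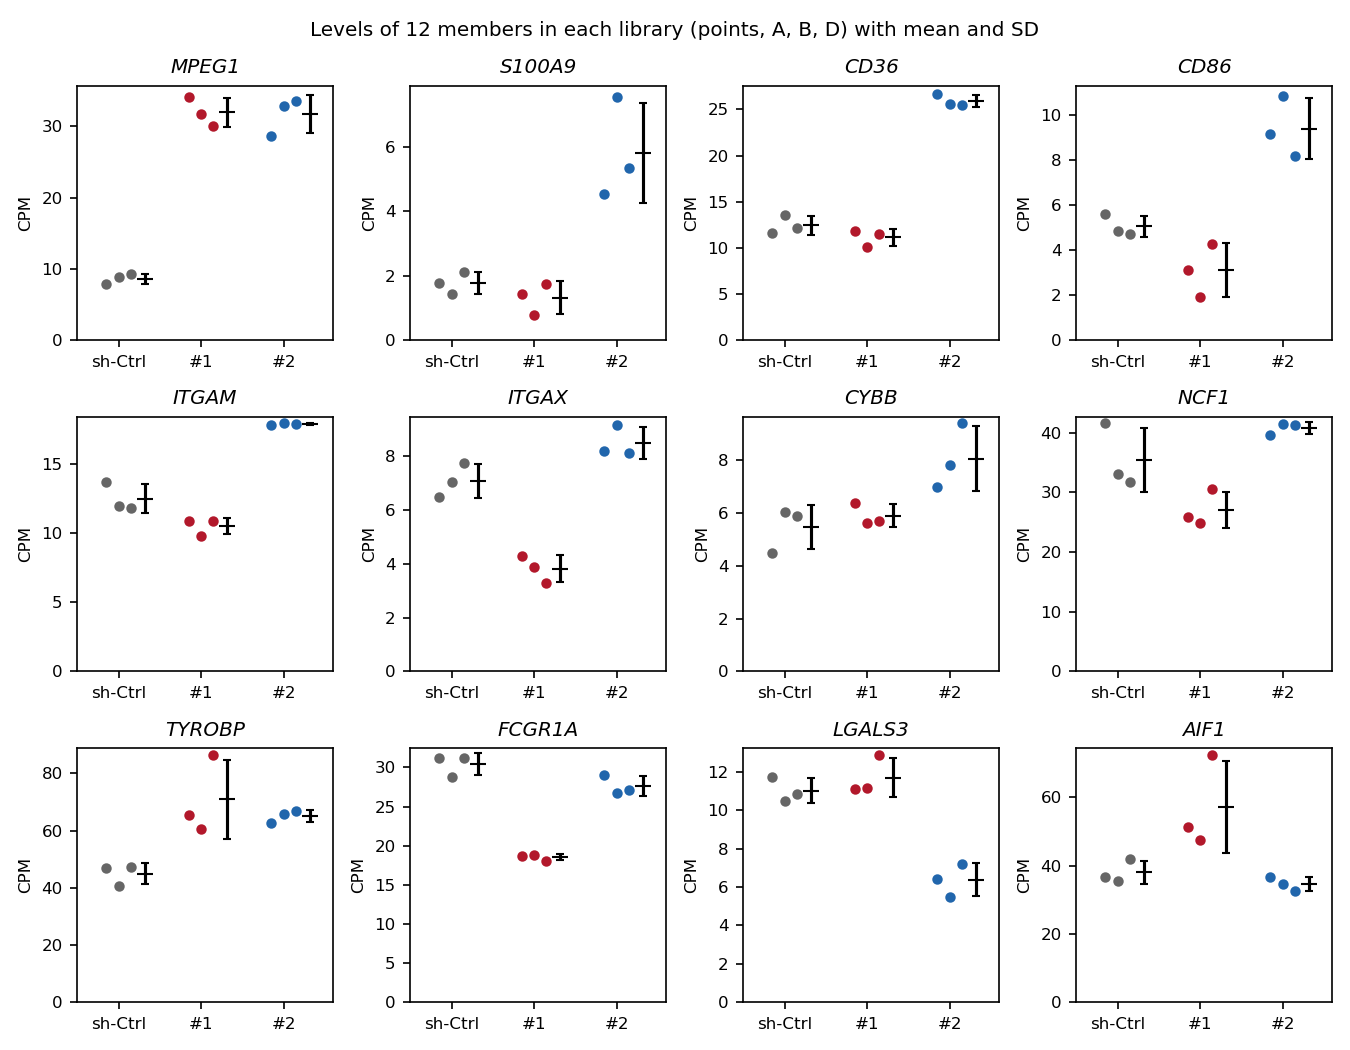
CPM (y axis, from 0) of 12 of the genes in each library of sh-Control, shDDX41 #1 and shDDX41 #2, with points for libraries A, B and D from left to right and a bar for the mean and SD of the group. MPEG1 is high with both hairpins, S100A9, CD36, CD86 and ITGAM are highest in shDDX41 #2, and ITGAX and FCGR1A are lowest in shDDX41 #1.

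The integrin genes encode the alpha chains CD11b (ITGAM) and CD11c (ITGAX) and their shared beta chain CD18 (ITGB2). The 2 alpha chains were lower in shDDX41 #1 than in shDDX41 #2. ITGAM lay at 13.7, 11.98 and 11.8 CPM in sh-Control, 10.9, 9.82 and 10.9 CPM in shDDX41 #1 and 17.8, 18.0 and 17.9 CPM in shDDX41 #2. These groups did not overlap. ITGAM rose by 0.52 (SE 0.1004, adjusted p = 0.00175) with shDDX41 #2, its log2 fold change with shDDX41 #1 was -0.25 (SE 0.106, adjusted p = 0.0632), and the hairpins differed by -0.77 (SE 0.103, adjusted p = 2.32e-05).

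ITGAX, which lies at chr16:31355134-31382997, near ITGAM at chr16:31259967-31332892, was at 6.50, 7.05 and 7.74 CPM in sh-Control, 4.28, 3.89 and 3.28 CPM in shDDX41 #1 and 8.21, 9.17 and 8.12 CPM in shDDX41 #2. It fell by 0.89 on the log2 scale (SE 0.147, adjusted p = 1.63e-04) with shDDX41 #1, had a log2 fold change of 0.26 (SE 0.133, adjusted p = 0.165) with shDDX41 #2, and differed between them by -1.16 (SE 0.145, adjusted p = 1.23e-05). ITGB2 ranged from 234.6 to 324.3 CPM and did not pass the test in any comparison, with log2 fold changes of 0.12 and 0.24. Library A of sh-Control held the highest control level of ITGB2, and without it ITGB2 was called higher with both hairpins.

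Among the Fc receptors and their adaptors, TYROBP rose with both hairpins and FCGR1A fell with shDDX41 #1. TYROBP (DAP12), an adaptor that carries the activation signal of several myeloid receptors, went from 45.0 ± 3.79 CPM to 70.9 ± 13.8 CPM in shDDX41 #1 and 65.1 ± 2.14 CPM in shDDX41 #2 (SD, n = 3 each). Its log2 fold changes were 0.65 (SE 0.1095, adjusted p = 1.89e-04) and 0.53 (SE 0.109, adjusted p = 0.00265). The highest value was that of library D of shDDX41 #1, 86.6 CPM, and without this library the rise with shDDX41 #1 was 0.50 (adjusted p = 3.38e-05).

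FCGR1A, the high-affinity receptor for immunoglobulin G, fell from 30.4 ± 1.37 to 18.5 ± 0.409 CPM with shDDX41 #1, a log2 change of -0.71 (SE 0.0800, adjusted p = 4.38e-06), and was at 27.6 ± 1.25 CPM with shDDX41 #2 (-0.14, SE 0.0770, adjusted p = 0.199). FCGR1A has near-identical copies between which reads can be split. The copy FCGR1B fell with both hairpins, by 1.23 (adjusted p = 1.99e-06) and 0.81 (adjusted p = 2.37e-04) on the log2 scale. With the counts of FCGR1A, FCGR1B and FCGR1C summed, a step added after seeing the data, the change was -0.77 (adjusted p = 9.49e-07) with shDDX41 #1 and -0.33 (adjusted p = 0.00376) with shDDX41 #2.

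FCER1G, the gamma chain that signals for FCGR1A, was low, at 1.70 ± 0.594 CPM in sh-Control, 1.06 ± 0.139 in shDDX41 #1 and 0.904 ± 0.0629 in shDDX41 #2. Its fall by 0.91 (SE 0.301, adjusted p = 0.0382) on the log2 scale with shDDX41 #2 was not called by DESeq2 or voom. Leaving out library A or D of sh-Control, library B of shDDX41 #1 or any library of shDDX41 #2 ended the call as well. FCGR2A, the low-affinity receptor, had log2 fold changes of -0.09 (adjusted p = 0.375) and -0.07 (adjusted p = 0.583).

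The phagocyte oxidase joins the membrane subunits CYBB (gp91phox) and CYBA (p22phox) to the cytosolic subunits NCF1 (p47phox) and NCF4 (p40phox). CYBB lay at 4.50, 6.02 and 5.90 CPM in sh-Control, 6.39, 5.63 and 5.70 CPM in shDDX41 #1 and 6.97, 7.84 and 9.39 CPM in shDDX41 #2. All 3 libraries of shDDX41 #2 were above all others, and those of shDDX41 #1 overlapped the controls. CYBB rose by 0.56 (SE 0.154, adjusted p = 0.0157) with shDDX41 #2 against 0.11 (SE 0.160, adjusted p = 0.598) with shDDX41 #1, and the hairpins differed by -0.45 (SE 0.154, adjusted p = 0.0262). The rise was not called without library A of sh-Control or library D of shDDX41 #2, and the difference was not called without library B of shDDX41 #1 or library B or D of shDDX41 #2.

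CYBA rose by 0.27 (SE 0.0854, adjusted p = 0.0329) with shDDX41 #2, a call that was lost on leaving out library B or D of sh-Control or any library of shDDX41 #2. NCF1 fell with shDDX41 #1, from 35.5 ± 5.39 to 27.1 ± 3.04 CPM (a log2 change of -0.39, SE 0.105, adjusted p = 0.00712), and was at 40.8 ± 0.957 CPM with shDDX41 #2 (0.20, SE 0.102, adjusted p = 0.162). NCF1 also has near-identical copies, NCF1B and NCF1C. NCF1C fell by 0.53 (adjusted p = 0.0132) with shDDX41 #1 and rose by 0.44 (adjusted p = 0.0466) with shDDX41 #2, and NCF1B rose by 0.80 (adjusted p = 3.49e-04) with shDDX41 #2. Summed over the 3 copies after the data were seen, the change was -0.41 (adjusted p = 0.00165) with shDDX41 #1 and 0.40 (adjusted p = 0.00412) with shDDX41 #2. NCF4 had log2 fold changes of 0.09 and 0.17 and passed the test in no comparison.

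The calgranulins S100A8 and S100A9 form calprotectin, which binds zinc and calcium, and both were at low levels. S100A9 at chr1:153357854-153361027 lay at 1.78, 1.43 and 2.11 CPM in sh-Control, 1.45, 0.778 and 1.76 CPM in shDDX41 #1 and 4.54, 7.54 and 5.33 CPM in shDDX41 #2. The shDDX41 #2 libraries were above all others. The change on the log2 scale was 1.71 (SE 0.257, adjusted p = 2.43e-04) with shDDX41 #2 and -0.42 (SE 0.317, adjusted p = 0.290) with shDDX41 #1, a difference of -2.13 (SE 0.274, adjusted p = 1.60e-05), the largest between the hairpins among the 31 genes. The 250 bases before its start, chr1:153357604-153357853 on the plus strand of GRCh38.p14, hold a single GAGGAA match on the other strand at -208 (capitals, TTCCTC) and are shown because this gene had that largest difference.
S100A9: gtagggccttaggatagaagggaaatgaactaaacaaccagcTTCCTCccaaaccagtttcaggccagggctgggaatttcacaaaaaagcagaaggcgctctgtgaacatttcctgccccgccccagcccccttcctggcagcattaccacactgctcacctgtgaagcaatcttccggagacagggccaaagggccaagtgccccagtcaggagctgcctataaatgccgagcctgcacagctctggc

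S100A8, its partner, was at 1.22, 0.803 and 0.790 CPM in sh-Control, 0.784, 0.659 and 1.58 CPM in shDDX41 #1 and 1.35, 1.49 and 2.06 CPM in shDDX41 #2. The shDDX41 #2 libraries were above the controls, but the change of 0.79 (SE 0.339, adjusted p = 0.103) did not pass the test, and the difference between the hairpins was called only without library D of shDDX41 #1 (-1.16, adjusted p = 0.0148). LGALS3, the lectin galectin-3, fell by 0.79 (SE 0.129, adjusted p = 4.45e-04) on the log2 scale with shDDX41 #2, from 11.02 ± 0.627 to 6.38 ± 0.855 CPM, and was at 11.7 ± 1.01 CPM with shDDX41 #1. ANXA1, a phospholipid-binding protein that limits inflammation, fell with both hairpins, by 0.51 (SE 0.0769, adjusted p = 8.09e-05) and 0.35 (SE 0.0759, adjusted p = 0.00366). VCAN, a matrix proteoglycan, was under 1 CPM in every library and did not pass the test, with log2 fold changes of 0.25 and -0.58.

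Of the pattern recognition and inhibitory receptors, LILRB4, an inhibitory receptor of the monocyte lineage, rose with both hairpins. It went from 90.6 ± 4.41 CPM to 109 ± 11.8 CPM with shDDX41 #1 (0.27, SE 0.0778, adjusted p = 0.0108) and 133 ± 3.66 CPM with shDDX41 #2 (0.55, SE 0.0774, adjusted p = 1.35e-04). The hairpins differed by -0.28 (SE 0.0771, adjusted p = 0.00700). TLR2, the receptor for bacterial lipoproteins, rose by 0.28 (SE 0.0767, adjusted p = 0.00694) with shDDX41 #1 and had a log2 fold change of 0.02 (adjusted p = 0.867) with shDDX41 #2. TLR4, the receptor for lipopolysaccharide, passed the test in neither comparison with sh-Control (-0.21 and 0.30) and was lower in shDDX41 #1 than in shDDX41 #2 by 0.51 on the log2 scale (SE 0.121, adjusted p = 0.00287). Library D of shDDX41 #1 held the lowest TLR4 level, 18.5 CPM against 26.8 and 27.0 CPM in the others of its group. Without it the difference was -0.35 (adjusted p = 0.00351), and TLR4 was called higher in shDDX41 #2 than in sh-Control (0.31, adjusted p = 0.00556). The rise with shDDX41 #2 was called in 5 of the 18 alternatives tried.

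CLEC12A, an inhibitory lectin receptor, was near the detection limit at 0.611, 0.459 and 0.527 CPM in sh-Control, 1.03, 0.838 and 0.607 CPM in shDDX41 #1 and 0.162, 0.595 and 0.303 CPM in shDDX41 #2. The lowest shDDX41 #1 and the highest shDDX41 #2 library were almost equal. The hairpins differed by 1.17 (SE 0.439, adjusted p = 0.0375), a call lost with DESeq2, without a filter on low counts, and on leaving out library A or B of shDDX41 #1 or library A or D of shDDX41 #2, with values from 0.83 to 1.81 over the alternatives tried.

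**Figure D3:**
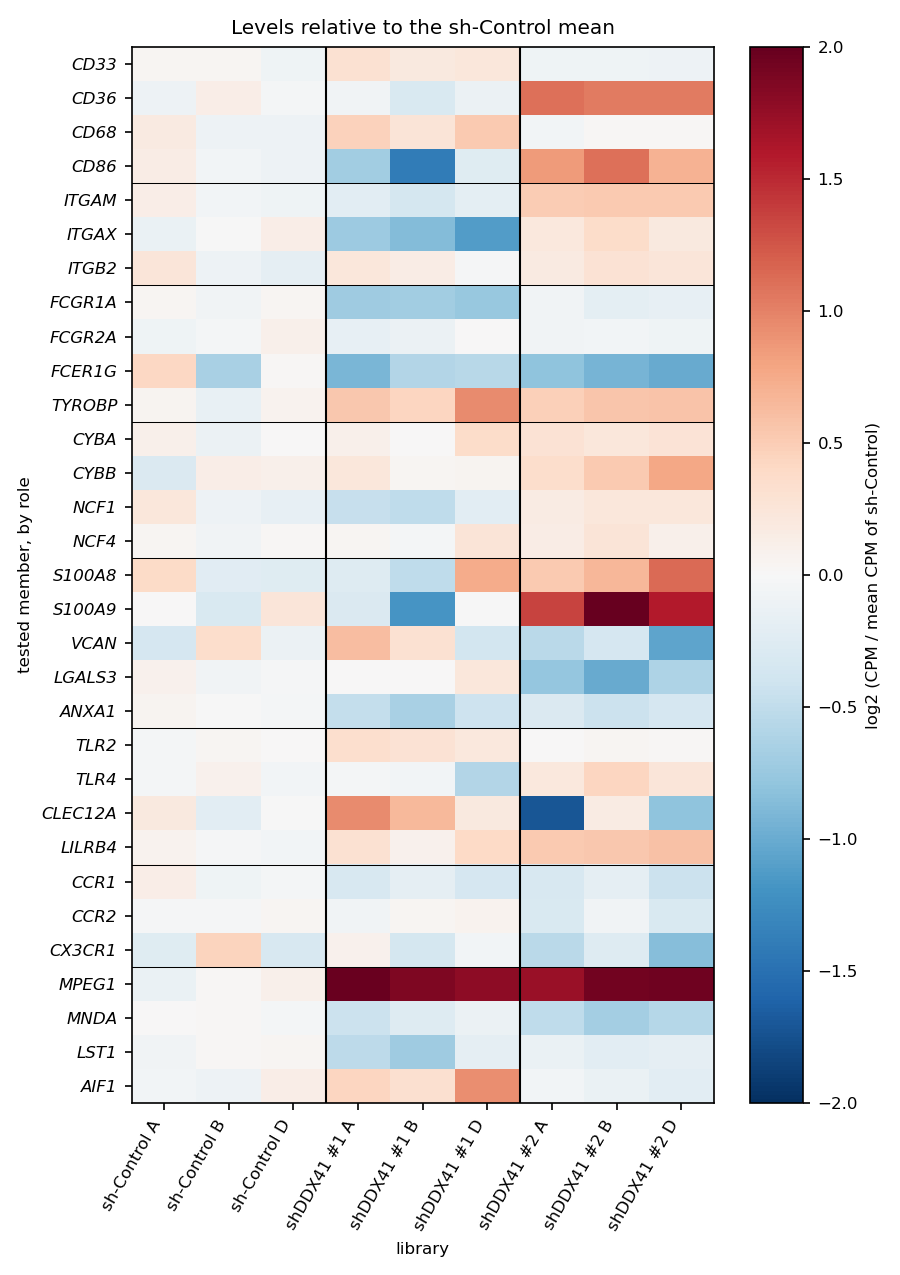
Level of each of the 31 tested genes (rows, by role) in each of the 9 libraries (columns) as the log2 of its CPM over the mean CPM of sh-Control, with red above and blue below that mean and the color scale cut at -2 and 2. The rows of MPEG1 and TYROBP are red in all 6 DDX41 hairpin libraries, and the rows of CD86 and ITGAX are blue in shDDX41 #1 and red in shDDX41 #2.

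Against sh-Control, the 3 tested chemotactic receptors among the 40 genes were lower or not called. With shDDX41 #1, 1 fell (33.3%, against 24.1% of all tested genes). With shDDX41 #2, 2 fell (66.7%, against 13.4%). Some chemotactic receptors outside the 40 genes rose, as given further below. CCR1, a receptor for CC chemokines such as CCL3, fell with both hairpins, by 0.28 (SE 0.0845, adjusted p = 0.0136) and 0.30 (SE 0.0841, adjusted p = 0.0164) on the log2 scale. The first call was lost without library A of sh-Control or of shDDX41 #1, and the second without library A of sh-Control or library A or D of shDDX41 #2. CCR2, the receptor for CCL2 that brings monocytes out of the marrow, fell by 0.23 (SE 0.0747, adjusted p = 0.0376) with shDDX41 #2 and had a log2 fold change of 0.01 (adjusted p = 0.906) with shDDX41 #1. This CCR2 call against sh-Control was lost on leaving out any library of sh-Control, library B of shDDX41 #1, or library A or D of shDDX41 #2. Between the hairpins, CCR2 was higher in shDDX41 #1 by 0.24 (SE 0.0749, adjusted p = 0.0159). That call was lost without library A or D of shDDX41 #2. CX3CR1, the receptor for fractalkine, had log2 fold changes of -0.09 and -0.51 and passed no test.

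Of the other intracellular myeloid proteins, MNDA, an interferon-inducible nuclear protein, fell with both hairpins, by 0.26 (SE 0.0834, adjusted p = 0.0180) and 0.58 (SE 0.0841, adjusted p = 1.64e-04). The fall with shDDX41 #1 was not called without library B of sh-Control or library A of shDDX41 #1. AIF1, an actin-binding protein of macrophages, rose by 0.58 (SE 0.126, adjusted p = 0.00146) with shDDX41 #1 and had a log2 fold change of -0.13 (adjusted p = 0.487) with shDDX41 #2. Without library D of shDDX41 #1, where AIF1 was at 72.4 CPM, the rise was 0.39 (adjusted p = 8.22e-04). LST1, a leukocyte-specific transcript, fell by 0.45 (SE 0.0997, adjusted p = 0.00163) with shDDX41 #1 and had a log2 fold change of -0.17 (adjusted p = 0.224) with shDDX41 #2. The hairpins differed in LST1 by -0.28 (adjusted p = 0.0291) although their libraries overlapped, and this call was lost without library A or B of shDDX41 #1 or any library of shDDX41 #2.

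Further genes of the same pathways were counted in lists, with shares given against those of all tested genes in the same comparison. Of 7 oxidase partners tested, 3 rose (42.9%) and 1 fell (14.3%) with shDDX41 #1, against 23.7% and 24.1%. With shDDX41 #2, 2 rose (28.6%) and 1 fell (14.3%), against 11.6% and 13.4%. In shDDX41 #1 against shDDX41 #2, 3 were higher (42.9%) and 2 lower (28.6%), against 24.6% and 24.2%. CYBC1 (C17orf62 in the table), the chaperone of the membrane subunits, rose by 0.53 (adjusted p = 7.03e-06) with shDDX41 #1. With shDDX41 #2, RAC2, the small GTPase of the oxidase, rose by 0.42 (adjusted p = 8.53e-04) and the kinase PRKCD fell by 0.40 (adjusted p = 0.00116).

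Of 14 genes of Fc receptor and integrin signalling, 1 rose (7.14%) and 6 fell (42.9%) with shDDX41 #1, against 23.7% and 24.1%. With shDDX41 #2, 2 rose (14.3%) and 2 fell (14.3%), against 11.6% and 13.4%. Between the hairpins, 2 were higher (14.3%) and 9 lower (64.3%) in shDDX41 #1, against 24.6% and 24.2%. LYN, a Src-family kinase, was at 399 ± 11.1 CPM in sh-Control, 229.8 ± 19.4 in shDDX41 #1 and 502 ± 13.3 in shDDX41 #2. It fell by 0.80 (adjusted p = 2.96e-07) with the first hairpin and rose by 0.33 (adjusted p = 0.00256) with the second, a difference of -1.13 (SE 0.0686, adjusted p = 1.13e-08). ITGA4, the alpha chain of VLA-4, fell by 0.50 (adjusted p = 2.83e-05) with shDDX41 #1, and ITGAL (CD11a), which also pairs with CD18, rose by 0.58 (adjusted p = 9.61e-05) with shDDX41 #2.

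Of 12 genes of Toll-like receptor signalling, 2 rose (16.7%) and 1 fell (8.33%) with shDDX41 #1, against 23.7% and 24.1%. With shDDX41 #2, 5 rose (41.7%) and 1 fell (8.33%), against 11.6% and 13.4%. In shDDX41 #1 against shDDX41 #2, 4 were higher (33.3%) and 3 lower (25%), against 24.6% and 24.2%. CD180, a relative of TLR4, rose by 0.65 (adjusted p = 8.20e-06) with shDDX41 #1 and by 0.39 (adjusted p = 0.00197) with shDDX41 #2, and the kinase IRAK1 fell by 0.38 (adjusted p = 1.12e-04) with shDDX41 #1. TLR6, the partner of TLR2, rose by 0.84 (adjusted p = 1.43e-04) and the adaptor TIRAP by 0.99 (adjusted p = 0.00112) with shDDX41 #2. TLR6 shares 57 exon bases with TLR1.

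Of 27 other monocyte and macrophage genes, 4 rose (14.8%) and 7 fell (25.9%) with shDDX41 #1, against 23.7% and 24.1%. With shDDX41 #2, 7 rose (25.9%) and 4 fell (14.8%), against 11.6% and 13.4%. In shDDX41 #1 against shDDX41 #2, 4 were higher (14.8%) and 11 lower (40.7%), against 24.6% and 24.2%. CSF1R, the receptor for macrophage colony-stimulating factor, fell by 0.86 (SE 0.121, adjusted p = 3.79e-05) with shDDX41 #1, from 22.1 ± 1.29 to 12.1 ± 2.07 CPM, and CD93 fell by 1.00 (SE 0.0989, adjusted p = 1.21e-06). CD93 also fell with shDDX41 #2, by 0.37 (SE 0.0957, adjusted p = 0.0108). With shDDX41 #2, LYZ, the lysozyme of monocyte granules, rose by 0.96 (SE 0.0658, adjusted p = 1.63e-07), from 931 ± 54.9 to 1818 ± 20.6 CPM, and the activating receptor LILRA2 rose by 1.13 (SE 0.0756, adjusted p = 1.32e-07). LYZ was at 870.4 ± 39.98 CPM with shDDX41 #1, and LYZ carried nearly all of the rise of the myeloid marker sum in shDDX41 #2: the other 8 markers summed to 885 to 937 CPM in sh-Control, 951 to 1010 CPM in shDDX41 #1 and 914 to 951 CPM in shDDX41 #2.

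Of 8 other chemotactic receptors, 3 rose (37.5%) and 1 fell (12.5%) with shDDX41 #1, against 23.7% and 24.1%. With shDDX41 #2, 2 rose (25%) and none fell, against 11.6% and 13.4%. In shDDX41 #1 against shDDX41 #2, 2 were higher (25%) and 2 lower (25%), against 24.6% and 24.2%. CXCR4, the receptor for CXCL12 that holds cells in the marrow, rose by 0.60 (adjusted p = 4.03e-05) and 0.63 (adjusted p = 9.01e-05), and the hairpins differed by -0.03 (SE 0.0838, adjusted p = 0.795). C5AR2, a second receptor for C5a, rose by 1.89 (SE 0.385, adjusted p = 0.00252) with shDDX41 #2, from 0.365 ± 0.192 to 1.37 ± 0.217 CPM, and by 1.70 (SE 0.399, adjusted p = 0.00267) with shDDX41 #1, to 1.21 ± 0.319 CPM. The hairpins differed in C5AR2 by -0.19 (SE 0.316, adjusted p = 0.647). LTB4R, a receptor for leukotriene B4 whose exons share 355 bases with LTB4R2, fell by 0.55 (adjusted p = 7.64e-04) with shDDX41 #1. Of the 4 tested near-identical copies of Fc receptor and oxidase genes, 2 fell (50%) with shDDX41 #1, against 24.1%. With shDDX41 #2, 2 rose (50%) and 2 fell (50%), against 11.6% and 13.4%. In shDDX41 #1 against shDDX41 #2, none of these copies was higher and 3 were lower (75%), against 24.6% and 24.2%.

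**Figure D4:**
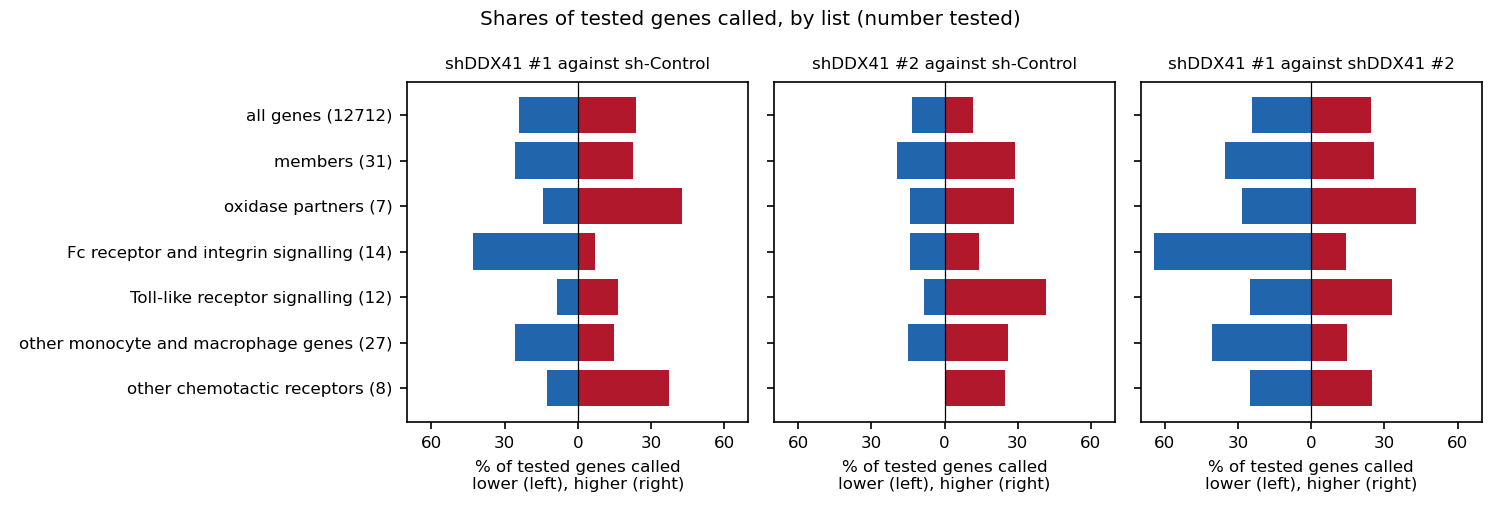
Percent of tested genes called lower (bars to the left) and higher (bars to the right) in the 3 comparisons, for all genes, the 31 genes described here and 5 further lists, with the number tested in parentheses. The 31 genes lie near the background with shDDX41 #1 (22.6% higher against 23.7%) and have a larger share called higher than the background with shDDX41 #2 (29% against 11.6%). They were chosen with earlier results of these data known.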

How the data were processed

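The authors deposited a table of raw read counts per gene for 9 libraries of sorted MOLM13 cells (poly(A)-selected RNA, paired-end sequencing). The submitters' processing notes name FastQC 0.11.7, HISAT2 2.0.5, featureCounts 1.5.2 and the builds mm10 and hg38, with no roles. The labels and the study's methods name different library kits, so strand use in counting is uncertain. No unmapped column was present.

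Counts were tested with edgeR 4.0.16 (R 4.3.3): filterByExpr with a minimum count of 10, TMM factors, a quasi-likelihood F test on all 9 libraries with 1 coefficient per group, two-sided, with Benjamini-Hochberg adjustment over all tested genes. CPM values use TMM-scaled library sizes over the tested genes, SE is that of the log2 fold change, and ± gives the SD. An exact permutation test of 3 against 3 cannot go below p = 0.1. The sources do not say whether libraries of a group were separate cultures, so p-values measure the spread between these samples, which may be technical. Libraries sharing a letter were not treated as pairs: 2 of 9 same-letter correlations were over 0.1 (range -0.06 to 0.24). Both were between sh-Control and shDDX41 #1, at 0.16 for B and 0.24 for D. For A the correlation of these groups was 0.07, and their different letters gave -0.18 to 0.07. The code was tested on simulated counts. A first criterion, for recovery of 2-fold changes, was not met, and most missed genes had mean counts under 50. The code was then judged on bias, calibration and recovery at high counts.

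The members and lists were chosen with earlier results of these data known. Values of every library were given for genes called with at least a 2-fold change in any comparison and for CD14, CD33, ITGAM, CYBB, S100A8, S100A9, MPEG1 and DDX41. Of each further list, the 2 called genes with the smallest adjusted p per hairpin against sh-Control were named, except a gene that is not reported here, and SPI1, DTX4 and counts of FPR1 and CLEC7A were added after their values were seen. Alternatives were DESeq2 1.42.0 (test and size factors), limma 3.58.1 voom, upper quartile and library size scaling, other count filters, a replicate block, the 6 libraries compared only, and each library left out. A planned search of member proteins was not run, and proteins were not analysed here.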

Additional observations from a re-analysis of the deposited data

How the results depend on the processing

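Of the genes called, 12 of 15 with shDDX41 #1, 10 of 15 with shDDX41 #2 and 14 of 19 between the hairpins kept direction and call under every alternative run. Changes of direction were seen in uncalled genes. With scaling by library size only, the log2 fold change of CCR2 with shDDX41 #1 was -0.00142 and that of CD68 with shDDX41 #2 was -0.0177, and with upper quartile factors FCGR2A was 0.0174 between the hairpins. Upper quartile factors, which shifted the median of all genes by at most 0.08, also ended the calls of CCR1 and MNDA with shDDX41 #1, of CCR2 with shDDX41 #2 and of LST1 between the hairpins. With a library left out, values ranged from -0.0325 to 0.0951 for CCR1, -0.0727 to 0.00785 for FCGR2A, -0.0561 to 0.0573 for MPEG1 and -0.0445 to 0.22 for TYROBP between the hairpins. They ranged from -0.00416 to 0.0581 for CCR2, -0.23 to 0.19 for CX3CR1, -0.0140 to 0.18 for CYBB and -0.37 to 0.33 for S100A8 with shDDX41 #1, and from -0.0462 to 0.0963 for CD68 with shDDX41 #2. The number of genes lower with shDDX41 #2 ranged from 3 to 7 on leaving out a library, and was 3 without library A of sh-Control and without library A or D of shDDX41 #2. With the replicate letter as a block, 11 of the 31 genes rose with shDDX41 #2 in place of 9, ITGB2 and TLR4 being added. The other counts of the 31 genes were the same. Calls over all genes went from 3174 to 3570 with shDDX41 #2, 6078 to 6351 with shDDX41 #1 and 6204 to 6503 between the hairpins. Depth limits the 5 tested genes with a mean count under 50. For the lost and turned calls, the cause was not tested.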
